A study of Rattus norvegicus with 10 samples.

Results

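The enzymes of heme biosynthesis were followed in rat mammary tumors sampled after and before treatment with adriamycin. The set comprised 8 genes, Alas1, Alas2, Alad, Uros, Urod, Cpox, Ppox and Fech, of 14218 genes that had a probe set of their own on the array. They were taken by symbol as all 9 probe sets whose platform annotation names 1 of these genes alone, which gave 1 probe set per gene and 2 for Uros. Alas2 was chosen by its lower level in the final sample of all 5 tumors, so its values are described here without a test. The remaining 7 genes were included as the rest of the pathway, whatever their values.

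Expression was measured on 10 arrays, a pair for each of 5 tumors with the codes 09I1, 11D2, 12I1, 29I1, 43D1. All arose in Sprague-Dawley rats, female, after 1 oral dose of 100 mg/kg of DMBA, a polycyclic hydrocarbon that causes hormone-dependent mammary carcinomas, and were of Bloom-Richardson grade II. The 5 final samples were taken at 19 weeks of age, in the 7th week after the biopsy, from tumors that had received 1 mg/kg of adriamycin (doxorubicin, an anthracycline) per week by tail vein for 6 weeks. The 5 basal samples were needle biopsies of the same tumors at 12 weeks of age, before any treatment, when a tumor had reached 2 cm3. No untreated tumor of the later age is among these samples, so treatment and age cannot be told apart. The sample labels describe the final sample as the whole tumor and the design text describes it as a needle sample, and each group has its own run of array codes, so the kind of sample and a batch of arrays cannot be told apart from the group either. Whether some tumors shared a rat is not given in the sources used here, and p-values therefore measure only the spread between these tumors. Each sample was bulk tissue, in which fewer cells of a type and less RNA per cell cannot be told apart.

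Heme is made in a chain of reactions that begins and ends in mitochondria and passes through the cytosol in between. The first reaction, catalysed by 5-aminolevulinate synthase, sets the rate and exists in separate forms: Alas1, which nearly all cells use and which heme represses, and Alas2, which is made almost only in the red cell lineage, where GATA1 drives its transcription and iron controls its translation. The later enzymes are shared by all cells, and red cell precursors raise several of them to supply hemoglobin.

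Upstream sequences of both synthases and of Fech, the last enzyme, are shown because these 3 genes carry the contrast described here. Each is the 300-base window that RefSeq's GRCr8 assembly gives around a transcript start (250 bases before it and 50 after), read 5′ to 3′ on the gene's strand. Capitals mark matches to the GATA motif (AGATAA and its variants AGATAG, then TGATAA and also TGATAG, all on both strands) or to the core of the NRF1 motif (GCATGCGC, on both strands). The Alas1 window lies at chr8:115768593-115768892 on the minus strand, the Alas2 window at chrX:22895200-22895499 on the plus strand and the Fech window at chr18:60248476-60248775 on the minus strand.
Alas1: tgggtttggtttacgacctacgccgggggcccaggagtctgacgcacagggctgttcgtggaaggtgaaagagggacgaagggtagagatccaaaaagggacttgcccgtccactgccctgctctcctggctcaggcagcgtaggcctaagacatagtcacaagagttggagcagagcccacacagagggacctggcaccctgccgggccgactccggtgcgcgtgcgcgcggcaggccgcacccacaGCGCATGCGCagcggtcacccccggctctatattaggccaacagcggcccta
Alas2: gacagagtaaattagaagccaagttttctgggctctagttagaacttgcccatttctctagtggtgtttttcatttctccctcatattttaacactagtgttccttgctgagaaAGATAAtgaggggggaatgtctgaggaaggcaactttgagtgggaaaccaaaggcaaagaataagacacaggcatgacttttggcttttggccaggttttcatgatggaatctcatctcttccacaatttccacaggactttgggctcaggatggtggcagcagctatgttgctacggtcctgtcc
Fech: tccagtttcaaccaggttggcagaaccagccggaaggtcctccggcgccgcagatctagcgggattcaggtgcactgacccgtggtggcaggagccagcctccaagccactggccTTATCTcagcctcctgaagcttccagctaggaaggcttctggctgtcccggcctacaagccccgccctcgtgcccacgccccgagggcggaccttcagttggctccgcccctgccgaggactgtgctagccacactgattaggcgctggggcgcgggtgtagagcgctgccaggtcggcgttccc
The Alas1 window held the NRF1 core on each strand, at bases 249 to 256 and 251 to 258, which overlap across the start, and no GATA motif. The Alas2 window held 1 AGATAA, at bases 115 to 120, but it surrounds a transcript start 4800 bases downstream of the gene's annotated start and is not the promoter at that start. The Fech window held the same motif on the opposite strand, printed as TTATCT, at bases 116 to 121. Of all 33469 windows of this length, 30.3% held a GATA motif and 2.47% the NRF1 core, so a GATA match by itself is common. The motif CCACACCC (both strands), which erythroid Klf1 binds, was in none of the windows of the 7 enzymes that have one and in 3.22% of all. The windows of Alad, Uros, Urod and Ppox held none of the motifs searched. Those of Uros and Ppox surround transcript starts 955 and 782 bases downstream of the gene's annotated start.

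One array, that of final 09I1, was unlike the rest. Over the tested probe sets it correlated with the remaining arrays by a median of 0.896, against 0.958 to 0.973 for those 9, and its beta-actin control probe sets differed (3′ end minus 5′ end, a measure related to RNA integrity) by 2.61 log2 units, where the others had 0.72 to 0.96.

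Alas2 was lower in the final sample of every tumor, by an amount that differed widely between tumors. Its log2 levels were 7.28, 8.43, 5.63, 4.37 and 4.71 in the final samples of 09I1, 11D2, 12I1, 29I1 and 43D1, against 10.59, 10.59, 11.40, 7.75 and 5.87 in the basal samples. The groups overlapped, since final 11D2 lay above basal 29I1 and 43D1, and final 09I1 lay above basal 43D1. Final minus basal was -5.76 for tumor 12I1, -3.39 for 29I1, -3.31 for 09I1, -2.15 for 11D2 and -1.16 for 43D1. As ratios of the array signal, the final level was 54.4-fold lower for 12I1, 10.5-fold for 29I1, 9.90-fold for 09I1, 4.45-fold for 11D2 and 2.23-fold for 43D1. The final values of 29I1 and 43D1 were dim, at the 29.6 and 35.3 percentiles of their arrays. The sizes of the differences in 29I1 and 43D1 are therefore uncertain. The tumor with the brightest basal value, 12I1, had the widest difference, and the tumor with the dimmest basal value, 43D1, the narrowest. Each difference contains the basal value itself, so this order is a description only. Group means were 6.09 ± 1.73 in final and 9.24 ± 2.34 in basal samples (SD, n = 5 each), and the mean of the 5 differences was -3.15 ± 1.72 (SD), an 8.90-fold lower level in final samples. Without 09I1 that mean was -3.12.

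The level of Alas2 also varied widely within each group. It spanned 4.07 log2 units among the final samples, or 16.8-fold, and 5.52 among the basal samples, or 46.0-fold. Ranked by the SD over all 10 arrays, Alas2 was number 4 of 12255 tested genes. That SD also contains the difference between groups on which the gene was chosen. This rank is therefore a description only and does not measure spread within groups. In basal 09I1, 11D2 and 12I1 the probe set was brighter than 96.2%, 96.1% and 98.2% of the probe sets of its array, while in final 29I1 it was brighter than 29.6% of them. On no array was it below the array's lower quartile. By mean difference, 1 of the 12255 genes was at or below -3.15, which was Alas2 itself; the choice of the gene on this difference makes that rank a description only.

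Alas1, the housekeeping synthase, showed nearly the same level on every array. It had log2 levels of 8.38, 8.63, 8.49, 8.45 and 8.41 in the final samples of 09I1, 11D2, 12I1, 29I1 and 43D1, against 8.58, 8.42, 8.22, 8.44 and 8.34 in the basal samples. All 10 values lay within 0.42 log2 units, and the groups overlapped. Differences were -0.20, 0.22, 0.27, 0.01 and 0.07 in the same order of tumors, with a mean of 0.07 ± 0.14 (SE), a 95% interval of -0.25 to 0.40 and a limma adjusted p of 0.977. Its SD over the arrays ranked at 3.13% from the lowest among the tested probe sets. Subtracting the Alas1 difference from that of Alas2 in each tumor gave -3.11, -2.37, -6.03, -3.40 and -1.23, with a mean of -3.23 ± 1.78 (SD, n = 5). The contrast between both synthases was negative in each tumor, and nearly all of it came from the Alas2 value. Because Alas2 was chosen for its lower final level in every tumor, that sign is a description only.

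**Figure D1:**
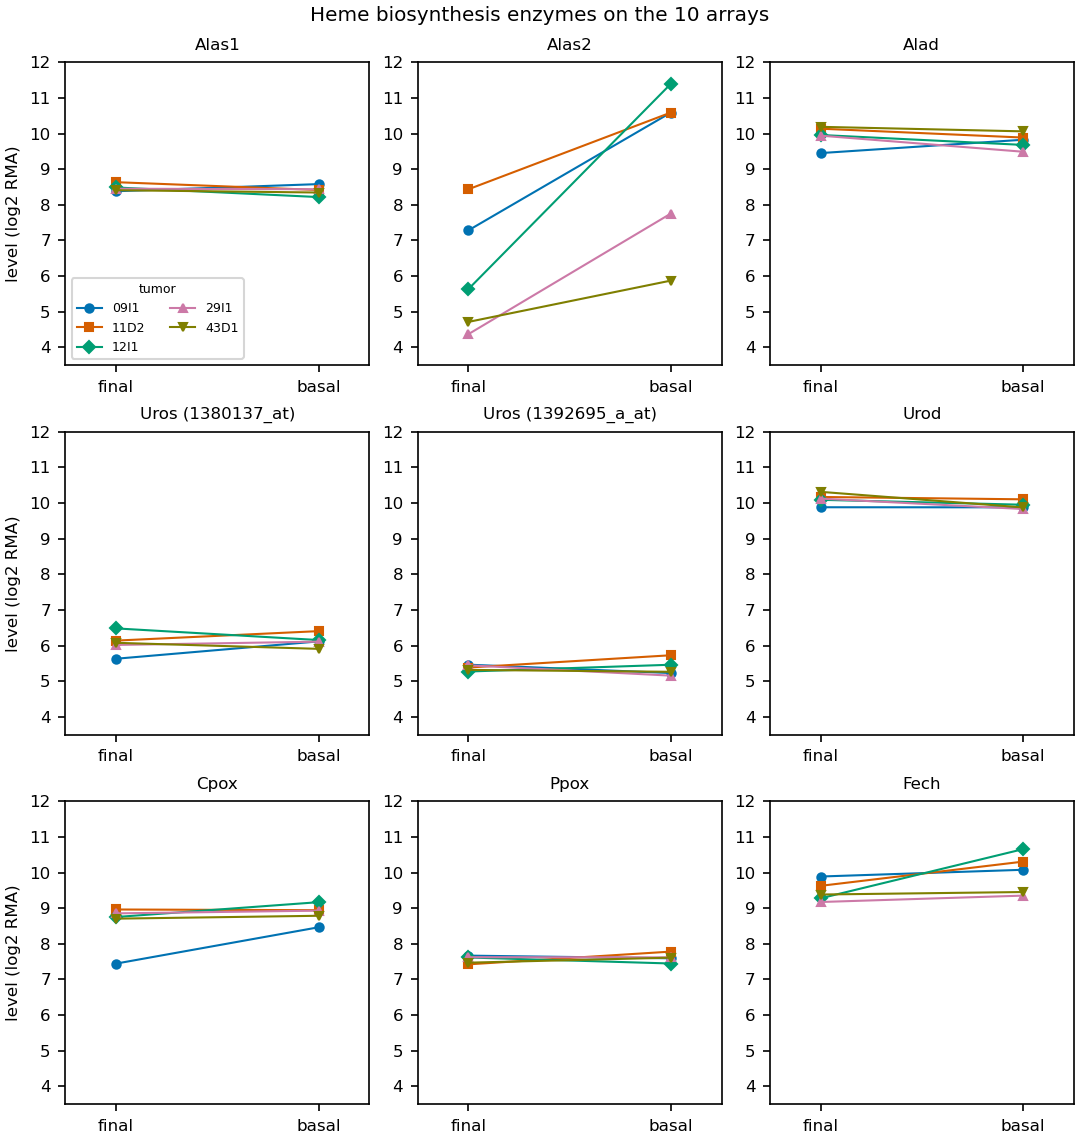
Log2 RMA level (vertical axis, same range in each panel) of each heme biosynthesis probe set in the final (left) and basal (right) sample, with 1 line per tumor. Alas2 slopes upward to the basal sample in all 5 tumors over a span of 7.03 log2 units, Fech slopes the same way with 12I1 steepest, and Alas1 lies within 0.42 log2 units throughout.

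Alad, which joins aminolevulinate into porphobilinogen in the cytosol, had log2 levels of 9.45, 10.14, 9.96, 9.94 and 10.19 in final samples, against 9.83, 9.89, 9.68, 9.49 and 10.06 in basal samples (tumors in the order above). The final value was lower in 09I1 and higher in the remaining 4 tumors. The mean difference was 0.15 (95% interval -0.21 to 0.50, limma adjusted p = 0.977), and the groups overlapped.

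Uros closes the tetrapyrrole ring, and the array holds 2 probe sets for it, both of middle brightness. On probe set 1380137_at the log2 levels were 5.63, 6.14, 6.48, 6.02 and 6.08 in final samples, against 6.12, 6.41, 6.16, 6.11 and 5.91 in basal samples, with a mean difference of -0.07 (95% interval -0.47 to 0.33, limma adjusted p = 0.977). Both groups overlapped there. On probe set 1392695_a_at the log2 levels were 5.46, 5.38, 5.27, 5.45 and 5.32 in final samples, against 5.23, 5.73, 5.46, 5.16 and 5.26 in basal samples. The differences were 0.24, -0.34, -0.19, 0.29 and 0.05, with a mean of 0.008 (95% interval -0.34 to 0.36, limma adjusted p = 0.998). The probe sets had opposite signs in 09I1, 12I1 and 29I1, so no direction can be read for this gene.

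Urod, which removes carboxyl groups from the ring in the cytosol, had log2 levels of 9.88, 10.17, 10.09, 10.12 and 10.31 in final samples, against 9.88, 10.10, 9.95, 9.83 and 9.88 in basal samples. Final minus basal was positive in 5 of 5 tumors, at 0.002, 0.07, 0.14, 0.29 and 0.44, although the first of these is near 0. Such a pattern was shared by 3.26% of all tested probe sets. The mean difference of 0.19 (95% interval -0.10 to 0.48) did not pass the threshold (limma adjusted p = 0.977).

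Cpox, which acts in the mitochondrial intermembrane space on coproporphyrinogen, had log2 levels of 7.44, 8.96, 8.75, 8.85 and 8.71 in final samples, against 8.46, 8.94, 9.17, 8.93 and 8.79 in basal samples. A single sample, final 09I1, lay well below all the others. The mean difference was -0.31 ± 0.19 (SE; 95% interval -0.76 to 0.13; limma adjusted p = 0.977) with all tumors and -0.14 without 09I1. This is the array that was unlike the rest.

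Ppox, the mitochondrial oxidase that makes protoporphyrin, had log2 levels of 7.67, 7.42, 7.62, 7.62 and 7.47 in final samples, against 7.59, 7.78, 7.45, 7.62 and 7.61 in basal samples. The signs were mixed, and the mean difference was -0.05 (95% interval -0.40 to 0.30, limma adjusted p = 0.977). Over the 10 arrays Ppox spanned 0.36 log2 units, less than Alas1.

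Fech, the ferrochelatase that inserts iron into protoporphyrin at the mitochondrial inner membrane, was lower in the final sample of all 5 tumors. Its log2 levels were 9.89, 9.63, 9.28, 9.17 and 9.38 in final samples, against 10.08, 10.31, 10.66, 9.35 and 9.45 in basal samples. The groups overlapped, because basal 29I1 and 43D1 lay among the final values. Differences were -1.38 for tumor 12I1, -0.68 for 11D2, -0.19 for 09I1, -0.18 for 29I1 and -0.07 for 43D1, that is, a 2.60-fold lower level in final 12I1 and a 1.60-fold lower one in final 11D2. A negative sign in all 5 tumors was found for 3.4% of all tested probe sets. Group means were 9.47 ± 0.29 in final and 9.97 ± 0.56 in basal samples (SD, n = 5 each). The mean difference of -0.50 ± 0.21 (SE) had a 95% interval of -1.0 to 0.003 and a limma adjusted p of 0.977, and without 12I1 it was -0.28.

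**Figure D2:**
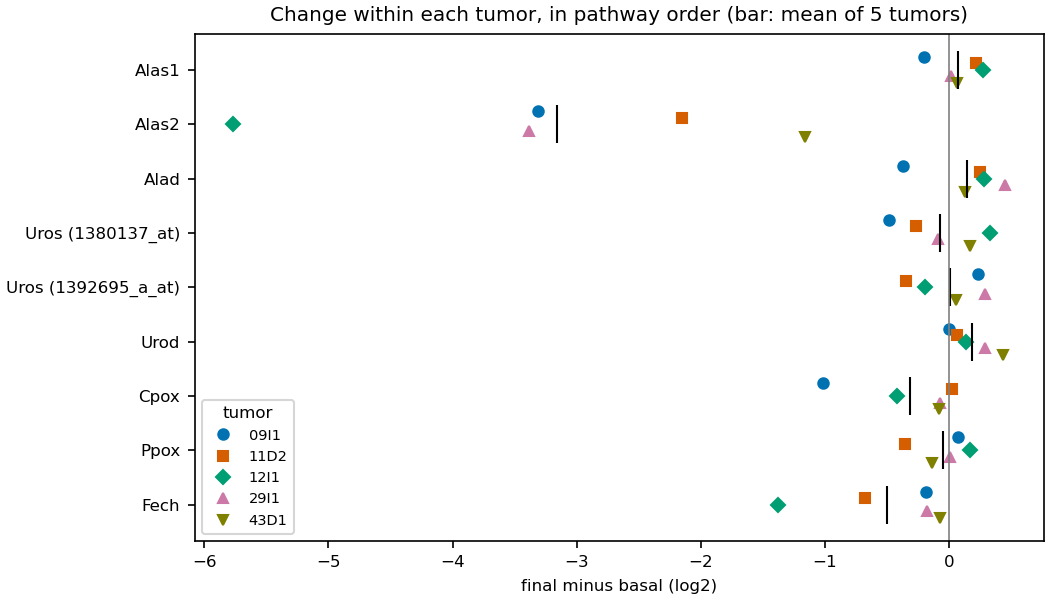
Final minus basal (horizontal axis, log2) for each probe set in pathway order from top to bottom, with 1 symbol per tumor and a bar at the mean of 5 tumors. The Alas2 symbols lie between -5.76 and -1.16, the Fech symbols between -1.38 and -0.07, and the other probe sets between -1.02 and 0.45.

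With limma, 0 of the 8 probe sets other than that of Alas2 passed an adjusted p of 0.05, against 0% of the 23281 probe sets tested, and the smallest adjusted p among them was 0.977. At an unadjusted p under 0.05 the count was also 0 of 8, against 4.02% of all. All 9 probe sets had passed the filter on low values. The median of the mean differences of the 7 genes was -0.05, beside 0.014 for all tested genes. In absolute size their median was 0.147, beside 0.134 for all genes, so apart from Alas2 the enzymes differed about as much as genes did in general. Their intervals reached out to -0.76 for Cpox and -1.0 for Fech, and differences of any size inside an interval are not excluded by these 5 tumors.

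Without 09I1, 0 of the 8 probe sets passed the adjusted threshold, but 2 of 8, those of Alad and Fech, had an unadjusted p under 0.05, against 8.02% of all tested probe sets. The mean differences over the other 4 tumors were 0.14 for Alas1, 0.28 for Alad, 0.23 for Urod, -0.14 for Cpox, -0.08 for Ppox and -0.58 for Fech. Alad was higher and Fech lower in the final sample of each of these 4 tumors, but 09I1 was the only tumor with a lower final Alad. The share of all probe sets with the same sign in these 4 tumors is not given here, so that pattern is a description only. The median of the 7 genes was then 0.03.

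Alas2 and Fech, the first and last enzymes of the erythroid pathway, followed each other in level over the arrays. Across the 10 arrays, which share tumors and groups, Pearson's r was 0.903 and Spearman's rho 0.867, and r was 0.867 to 0.924 with a tumor left out. Alas2 was chosen for its lower final level, which raises r for any gene that is lower in final samples. Values and ranks with group means kept are therefore a description only. Across the 5 differences r was 0.76, but this rested on tumor 12I1, without which it was -0.02 over the other 4. Both genes were brightest in basal 12I1, next in basal 11D2 and 09I1, and dimmest in final 29I1. Of 5993 genes that spanned at least 1 log2 unit, Fech was number 8 by its r with Alas2, and it was again number 8 after each group's mean had been subtracted (r = 0.866, rho = 0.806). With a tumor left out or with Spearman's rho in place of r, the rank was 8 to 12 with the means kept and 7 to 48 with the means subtracted. Cpox, the only other enzyme that spanned 1 unit, was number 1672 (r = 0.15). Alas1 had an r of -0.07 with Alas2. Among the remaining enzymes, Alad and Urod had an r of 0.74 and a rho of 0.64 with each other, and an r of 0.67 to 0.88 with a tumor left out. Uros (1380137_at) and Cpox had an r of 0.67 and a rho of 0.49, but without 09I1 the r was 0.05, and the other Uros probe set had an r of -0.005 with Cpox.

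**Figure D3:**
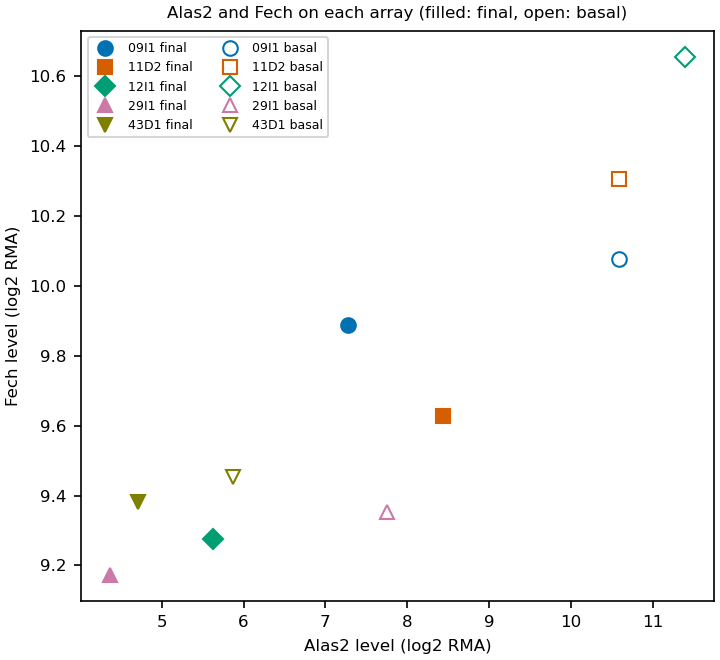
Fech level (vertical axis, log2 RMA) against Alas2 level (horizontal axis, log2 RMA) on the 10 arrays, with filled symbols for final and open symbols for basal samples. The 3 arrays brightest for both genes are basal 12I1, 11D2 and 09I1 (r = 0.903 over the 10 arrays, group means kept).

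The genes most like Alas2 in level over the 10 arrays included globin genes. The first list keeps the group means, so genes lower in final samples gain from the choice of Alas2. It is a description only. The top 8 were Hba-a3, an alpha-globin (r = 0.969, rho = 0.964), Hbb, a beta-globin (0.961 and 0.988), the phosphatase Cdc25b (r = 0.945), the lipoxygenase Alox15 (0.934), which in rabbit reticulocytes attacks mitochondrial membranes, Ahsp, the chaperone of free alpha-globin (0.926), Npy, which encodes neuropeptide Y (0.916), Rsad2, an interferon-induced gene (0.903), and Fech. After the mean of each group was subtracted, they were Hba-a3 (0.949), Alox15 (0.938), Hbb (0.933), Ahsp (0.927), Cdc25b (0.905), Selenbp1 (0.903), Ybx3 (0.869) and Fech. With a tumor left out or with Spearman's rho, 5 to 7 of the first 8 and 1 to 6 of the second 8 stayed among the top 8. The genes most like Alas1 were Cd55 (0.846), Lypd6b (0.828), Smoc2 (0.790), Tmcc3 (0.789), RT1-S3 (0.776), Slc7a7 (0.774), Fhl1 (0.754) and Trarg1 (0.752). With group means subtracted they were Lypd6b (0.850), Socs2 (0.839), Cd55 (0.828), Rasgrp1 (0.797), Thrsp (0.793), Gas2l3 (0.785), Abcb10 (0.784), a mitochondrial transporter of the heme pathway, and Got1 (0.773). This second pair of lists rests on the narrow span of Alas1, and as few as 1 and 0 of the 8 genes stayed when a tumor was left out.

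Hbb and Hba-a3, the globin genes that were tested, had the same sign as Alas2 in every tumor. Hbb had log2 levels of 12.51, 13.22, 11.09, 9.21 and 9.82 in final samples of 09I1, 11D2, 12I1, 29I1 and 43D1, against 14.12, 14.15, 14.26, 13.06 and 11.36 in basal samples. The highest basal values are near the brightest probe set of any array (14.05 to 14.48), so the size of its difference is uncertain. Its mean difference was -2.22 ± 0.42 (SE, limma adjusted p = 0.850), and that of Hba-a3 was -2.90 ± 0.58 (adjusted p = 0.850). By tumor, Hba-a3 differed by -1.48, -2.06, -5.34, -4.05 and -1.58, and Ahsp by -0.13, -1.11, -2.63, -0.36 and -0.28. Other alpha- and beta-globin probe sets carry several symbols and were not assigned to a gene.

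The red blood cell list was mixed in sign. Of its 53 genes 34 were measured and 24 tested, and 0 passed the adjusted threshold in either direction. At a limma unadjusted p under 0.05, 5 of 24 were lower and 0 higher in final samples. Over all tested probe sets the share was 4.02% in either direction. The list was chosen with earlier results of these data known, so its counts are a description only. Mean differences were negative for 15 and positive for 9, with a median of -0.20 beside 0.014 for all genes. Of the 21 tested genes besides Hbb, Hba-a3 and Ahsp, 12 were negative and 9 positive, the median was -0.14, and 2 were lower and 0 higher at the unadjusted threshold. By tumor, 13, 17, 20, 9 and 8 of the 24 genes were lower in the final sample of 09I1, 11D2, 12I1, 29I1 and 43D1, with medians of -0.11, -0.39, -0.63, 0.09 and 0.13. The mean level of the list ranged between 6.72 and 7.14 in final samples and between 6.76 and 7.77 in basal samples. Rhd, an Rh blood group protein that lay below the lower quartile on 6 of the 10 arrays, differed by -0.91 on average (adjusted p = 0.977), with values of -1.15, -1.29 and -2.27 in 09I1, 11D2 and 12I1 and 0.06 and 0.12 in 29I1 and 43D1. Tfrc, the transferrin receptor that takes up iron, differed by -0.67 (adjusted p = 0.977). The 10 measured members Hbz, Hbe1, Hbe2, Hbg1, Rhag, Kel, Gata1, Nfe2, Hemgn and Tfr2 were among the dimmest 25% of probe sets and were not tested. Without 1 tumor at a time the list's median was -0.31 to -0.15. Hbb, Hba-a3 and Ahsp were lower in the final sample of each tumor, as were Alas2 and Fech. Ahsp was named for its likeness to Alas2, so its sign is a description only. The part of these genes in the Alas2 and Fech values was not tested.

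**Figure D4:**
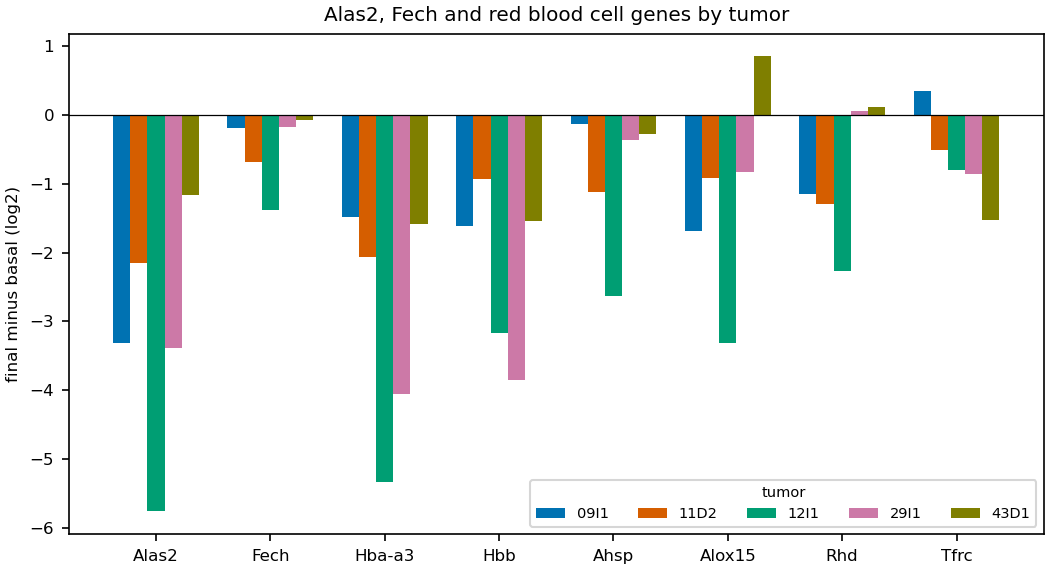
Final minus basal (vertical axis, log2) of Alas2, Fech, Hba-a3, Hbb, Ahsp, Alox15, Rhd and Tfrc, with 1 bar per tumor. Alas2, Fech, Hba-a3, Hbb and Ahsp are below 0 in all 5 tumors, while Alox15, Rhd and Tfrc have at least 1 tumor above 0. Of all tested probe sets, 3.4% are below 0 in all 5 tumors. Genes beside Alas2 and Fech were picked by smallest p, as globins or by likeness to Alas2. Of the 24 tested genes of the red blood cell list, 9 had a positive mean and are not shown.

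Platelet genes also had a negative median. Of 16 listed genes 9 were tested and 0 passed the adjusted threshold. At a limma unadjusted p under 0.05, 3 of 9 were lower, against 4.02% of all tested probe sets in either direction. This list too was chosen with earlier results of these data known, so its counts are a description only. The median of these genes was -0.46, with 7 of 9 negative. Their leading members were Clec1b (-1.42, adjusted p = 0.850), a platelet receptor, Tubb1 (-2.05, 0.859), the platelet beta-tubulin, Pf4 (-1.14, 0.966), a chemokine of platelet granules, and Treml1 (-0.46, 0.977). Clec1b lay below the lower quartile on 5 arrays and Tubb1 on 3, so the sizes of their differences are uncertain. Their part in the Alas2 value was not tested.

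The other genes of heme metabolism showed no differences past the threshold. For the counts below, 4.02% of all tested probe sets had a limma unadjusted p under 0.05 in either direction. Among 21 tested genes of precursor supply and mitochondrial transport, 0 passed and 1 was higher at an unadjusted p under 0.05, with a median of 0.03. Isca2, an iron-sulfur assembly factor, differed by 0.33, Tmem14a, a mitochondrial membrane protein, by 0.28, Tspo, a mitochondrial outer membrane protein, by 0.24, and Lonp1, a protease that degrades Alas1, by -0.20. Among 18 tested regulators of the synthases, 0 passed, 1 was higher and 1 lower at the unadjusted threshold, and the median was -0.05. Per2, a circadian repressor, differed by -1.09 with a negative sign in 5 of 5 tumors, Foxo1 by 0.44, the iron sensor Ireb2 by -0.61, with -2.68 in tumor 09I1 and -0.42 to 0.26 elsewhere, and Ldb1 by -0.24. All 8 of these genes had a limma adjusted p of 0.977.

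Genes for heme export, import and breakdown gave 0 of 16 past the adjusted and 0 past the unadjusted threshold, with a median of 0.02. The unadjusted threshold counted 4.02% of all tested probe sets in either direction. The heme transporters Slc48a1 and Flvcr1 differed by 0.32 and 0.45, albumin (Alb) by 0.30 and the reductase Blvrb by 0.29. Genes of heme a and cytochrome c assembly and electron carriers gave 0 of 10 at either threshold, with a median of 0.07 (Cyb5a 0.27, Hccs -0.19, Cyb5r3 0.20, Sdhc 0.12). Other hemoproteins gave 0 of 17 past the adjusted threshold and 2 higher and 1 lower at the unadjusted one, with a median of -0.02 (Cyp4b1 0.60, Cygb 0.71, Ptgs1 -0.72, Cyp2s1 -0.45). Every one of these 12 genes had an adjusted p of 0.977.

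**Figure D5:**
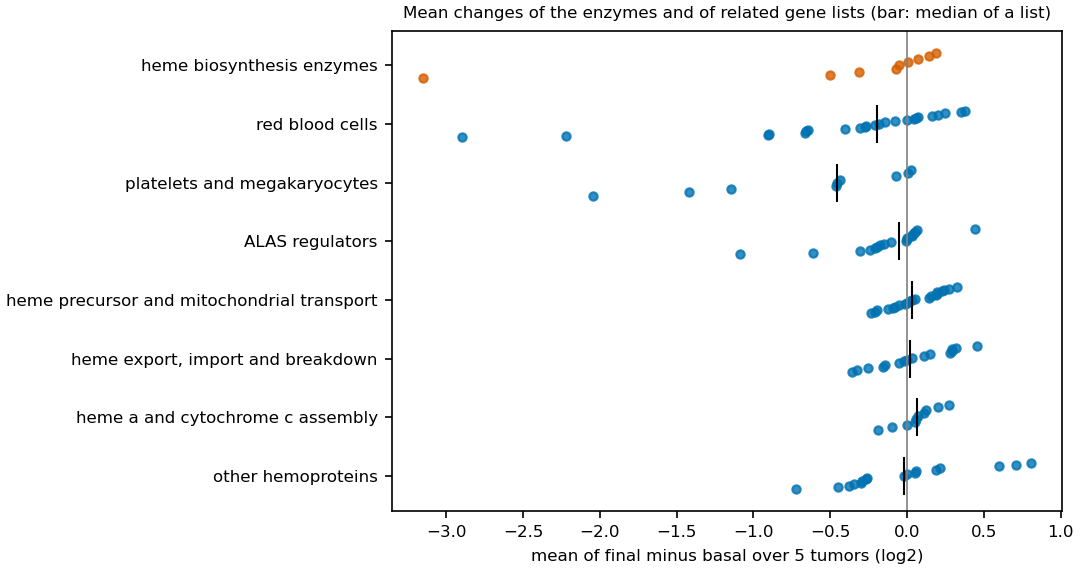
Mean of final minus basal over 5 tumors (horizontal axis, log2), with 1 point per gene, grouped by list, and a bar at the median of each list; the top row has 1 point for each of the 9 heme biosynthesis probe sets. Alas2 stands at -3.15, apart from the other enzymes, and Hba-a3 and Hbb form the low end of the red blood cell list.

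The tissue was checked against markers of other cell types. Beside the counts below, the unadjusted threshold counted 4.02% of all tested probe sets in either direction. All 15 listed genes of mammary epithelium were tested, 11 of them lay above the upper quartile on every array, and 0 passed the adjusted threshold, with 3 higher and 1 lower at the unadjusted one and a median of 0.10 (Elf5 1.30, Wap 1.27, Lalba 1.28, Krt14 -0.45). Macrophage genes had a median of -0.16 over 8 tested (Slc40a1 -0.38, Hmox1 -0.36, Cd14 0.21, Csf1r -0.25). By tumor that median was -0.16, 0.76, -0.81, -1.35 and 1.11 in 09I1, 11D2, 12I1, 29I1 and 43D1, so the tumors differed in sign. Endothelial genes had a median of 0.004 over 7 (Pecam1 0.35, Kdr -0.38, Eng -0.12, Tie1 -0.15). By tumor it was 0.33, 0.25, 0.41, -0.84 and -0.007 in the same order. Both lists had 0 genes at either threshold. Muscle genes had a median of 1.19 over 7 tested, or 0.09 without 11D2, which gave the largest values (Actn3 4.81, Myl11 6.21, Ckm 5.33 and Mb 3.88 in that tumor). Adipocyte genes had a median of 0.57 over 5, or 0.21 without 11D2 and 1.24 without 29I1 (Plin1 0.54, Lpl 0.46, Adipoq 1.06, Fabp4 0.95), with differences of opposite sign between tumors. Muscle and adipocyte genes had 0 at either threshold.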

How the data were processed

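RNA of 10 tumor samples was hybridised to Affymetrix rat expression arrays. The deposited values are log2 intensities that the authors normalized with robust multichip averaging and tested with a paired Student test, per the labels' protocols. The authors' filter on controls and weak signals is not part of the table used here, which held 57 control probe sets. Of 31099 probe sets, 20832 carried 1 gene symbol in the platform annotation, 436 several and 9780 none besides the controls. Genome build and probe coordinates are not given in the sources used here, so array features have no coordinates; sequences come from RefSeq (GRCr8).

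Control probe sets and the 25% with the lowest mean were left out, leaving 23281. The model for final minus basal (limma 3.58.1, R 4.3.3) had tumor as a blocking factor and an intensity trend, with Benjamini-Hochberg adjustment over all tested probe sets (threshold 0.05). The fit was tested on simulated data. Where a gene had several probe sets, the brightest tested one stood for it, giving 12255 genes. Named were all member probe sets, the 4 genes of each list with the smallest p, the measured globins, and the 8 genes most like Alas2 and Alas1; Ahsp and Alox15 are named by likeness, and their place in the plot of red cell genes was chosen after their values were seen. Members and lists were chosen with earlier results of these data known. The lists share 8 genes.

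The pairing comes from the tumor codes in the labels. As a check, deviations from the group mean correlated between a tumor's samples by 0.072, 0.095, 0.014, -0.15 and 0.22 in 09I1, 11D2, 12I1, 29I1 and 43D1. These values were low or negative, so the check gave little sign that samples of the same tumor resemble each other. The pairing therefore rests on the codes alone. Array medians lay between 5.93 and 6.11. Precision is limited by the number of arrays, and brightness is not compared between probe sets as an amount of RNA. Each tumor was left out in turn; doing so for the correlations between pairs of enzymes, and counting the red blood cell list without Hbb, Hba-a3 and Ahsp, were chosen after seeing the data. Other alternatives were cyclic loess, median centring, array weights, no trend, the methods' t-test, averaging probe sets within a gene, tumor as a random block or ignored, and filters on 0 or 50% of probe sets. Figures were drawn with matplotlib 3.10.9.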

Additional observations from a re-analysis of the deposited data

Results flagged for a closer look

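Cpox had a log2 level of 7.44 in final 09I1, far below the nearest of the other 4 final samples (8.71), with a gap of 0.831 of the group's range. Of 31 sets of 5 values examined, 1 had such a sample, where chance gives about 1.55.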

How the results depend on the processing

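The Alas2 difference of -3.15 was negative under every alternative, at -3.65 to -2.50 with a tumor left out and -3.15 to -2.79 otherwise. Fech kept its sign, at -0.61 to -0.28 with a tumor left out and -0.58 to -0.47 otherwise. Alas2 was part of the fits, but its p is not given because the gene was chosen for its change. No other enzyme reached a limma or t-test adjusted p below 0.341 in any setting. In each of the 14 alternatives 0 probe sets passed the threshold, that of Alas2 included. The count at an unadjusted p under 0.05 was 935, with 465 after the filter on the lowest 50% and 2440 with array weights, 1868 without 09I1, 608 without 11D2 and 685 without 43D1. Of the 8 enzyme probe sets at that threshold, 2 (Alad and Fech) were counted with array weights, against 10.5% of all, and 1 (Fech) without the filter, against 4.12% (1280 probe sets), or without 43D1, against 2.94%. In the fit with no replicate block it was 955, in the paired t-test of the methods 1081, and the block changed no call. The estimated correlation within tumors as a random replicate block was 0.0017.

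Signs turned for the near-zero differences. Uros 1380137_at ranged between -0.17 and 0.034 with a tumor left out, Uros 1392695_a_at between -0.062 and 0.097, and Ppox between -0.10 and 0.027; cyclic loess gave -0.028 and array weights gave -0.13 for Uros 1392695_a_at. The cause was not tested. List medians near 0 also turned with a tumor left out: macrophages -0.43 to 0.14 (0.17 with array weights), endothelium -0.11 to 0.11, other hemoproteins -0.26 to 0.07 and heme export, import and breakdown -0.002 to 0.10. The median of all genes was 0.014, 0.018 with cyclic loess and 0.045 after centring, and the share higher at the unadjusted threshold was 42.7%, 37.3% and 51.6%.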
